A study of Papio anubis with 40 samples.

Results

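Serum drawn 6 months after inoculation of the peritoneal cavity with menstrual tissue was compared with serum drawn from the same animals beforehand, for the fragments of transfer RNAs (tRNAs) that it carried. All libraries labelled 6 months and all labelled 0 months were used, 8 of each, paired by animal, and these are 16 of the 40 libraries of the series. The 16 libraries held 35015 of the 58587 distinct fragments that carry an ID, and 2447 fragments had enough counts over the series to be tested. The animals were 8 olive baboons (Papio anubis), named PA8001, PA8003, PA8835, PA8872, PA8873, PA8912, PA8914 and PA8915.

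The month 6 group came from animals whose endometriosis had been induced by laparoscopic inoculation, with lesions seen at laparoscopy and in histology. The month 0 group was the draw before inoculation, which the study took as the basal level. Each draw gave 0.5 mL of serum, every sample carried the treatment label of no treatment, and further draws were made at months 3, 9 and 15. No animal without inoculation was included, so 6 months of ageing, the laparoscopy itself and the disease cannot be told apart. Neither age nor sex of the animals is stated in the labels.

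Transfer RNAs carry amino acids to the ribosome, and endonucleases such as angiogenin can cut them in the anticodon loop into a 5′ and a 3′ piece. The 5′ pieces of glycine, valine, glutamate and lysine tRNAs are abundant in the serum of mammals, where they are carried in protein complexes and vesicles. A fragment is named here by the tRNA it begins like and by its length in nucleotides (nt), since the place of the cut sets the length of a 5′ fragment.

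The fragments below carry most of the comparison: the main 5′ fragments of the valine and both glycine families, variants of them, a lysine pair that differs by its last base, and the longest of the named methionine fragments. In the glycine GCC and valine variants, capitals mark the base that departs from the main sequence. In the longer Gly-CCC and Lys-TTT fragments they mark bases beyond the shorter one shown, and in the other fragments the anticodon or the CCA end. Variants are written with the main base, its position counted from 1 at the mature 5′ end, and the base found.
Val-AAC/CAC, 31 nt, main: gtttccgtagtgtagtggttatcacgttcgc
Val-AAC/CAC, 31 nt, A24C: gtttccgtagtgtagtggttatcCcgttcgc
Val-AAC/CAC, 31 nt, T16C and T20C: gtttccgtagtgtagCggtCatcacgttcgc
Gly-CCC, 27 nt: gcgccgctggtgtagtggtatcatgca
Gly-CCC, 32 nt: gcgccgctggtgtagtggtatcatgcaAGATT
Gly-GCC, 30 nt, main: gcatgggtggttcagtggtagaattctcgc
Gly-GCC, 30 nt, C13T: gcatgggtggttTagtggtagaattctcgc
Gly-GCC, 30 nt, G5T: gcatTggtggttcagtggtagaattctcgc
Lys-TTT, 31 nt: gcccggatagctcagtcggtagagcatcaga
Lys-TTT, 32 nt: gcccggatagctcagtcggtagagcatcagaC
Met-CAT-1, 42 nt: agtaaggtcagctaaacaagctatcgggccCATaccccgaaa
Asp-GTC, 3′ CCA, 42 nt: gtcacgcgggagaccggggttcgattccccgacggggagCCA

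Library totals ran from 1685919 to 4853810 counts at month 6 (median 3445179.5) and from 198840 to 5536169 at month 0 (median 3777432.5). The month 0 library of PA8001 was the one at 198840, and it also differed from the others in make-up, so values that move without it are given with it. Levels below are counts-per-million (CPM) of the library total after TMM scaling, with factors of 0.764 to 1.67 at month 6 and 0.775 to 1.93 at month 0. A fragment at 0 counts may have had up to 3, which were worth 0.709 to 1.17 CPM at month 6 and 0.627 to 7.88 CPM at month 0. All log2 values are month 6 over month 0 within animals. The 5′ class made up 99.3% ± 0.172 of counts at month 6 and 99.2% ± 0.141 at month 0 (SD, n = 8 each), 3′ fragments ending in CCA 0.0661% ± 0.0205 and 0.0690% ± 0.0478.

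No single fragment passed. Of the 2447 fragments tested by edgeR's quasi-likelihood test with animal as a block, 0 (0.0%) had an adjusted p under 0.05, and the smallest adjusted p was 0.304. At an unadjusted p under 0.05, 194 fragments were higher at month 6 (7.93%) and 116 were lower (4.74%). In every one of the 8 animals, 59 fragments (2.41%) were higher and 23 (0.94%) were lower. Log2 values above 0 were found for 1256 fragments (51.3%) and below 0 for 1191 (48.7%), and for 0 fragments did the month 6 and month 0 libraries fail to overlap. The split of these low p values depended on single animals: without PA8003 35.7% of them were higher at month 6, without PA8914 41.2%, and without PA8872 79.4%, against 62.6% with all 8. Scaling by library totals alone gave 135 higher and 121 lower.

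The tools did not give the same count. DESeq2 called 17 of 2447 (0.695%), 11 higher and 6 lower, each at an adjusted p of 0.0489. Without a filter on low counts edgeR called 8 of 58587 (0.0137%), and limma-voom called 0 with or without library weights. The calls of DESeq2 and of unfiltered edgeR shared 4 fragments, 13 were called by DESeq2 alone and 4 by unfiltered edgeR alone. The fragments higher in DESeq2 were 10 Gly-GCC fragments with 1 base changed and the Val-AAC/CAC fragment with T16C and T20C. The lower ones were 5 Met-CAT-1 fragments and a 16 nt Lys-CTT fragment. The 4 shared calls were all Met-CAT-1 fragments. Unfiltered edgeR alone called the main 31 nt valine fragment and its A24C form higher and the 32 nt Gly-CCC fragment lower, each at an adjusted p of 0.00997. It also called a 31 nt Gly-CCC fragment with C26G higher, at 0.0234. The valine fragments and the 32 nt Gly-CCC fragment did not pass in edgeR with the filter.

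**Figure D1:**
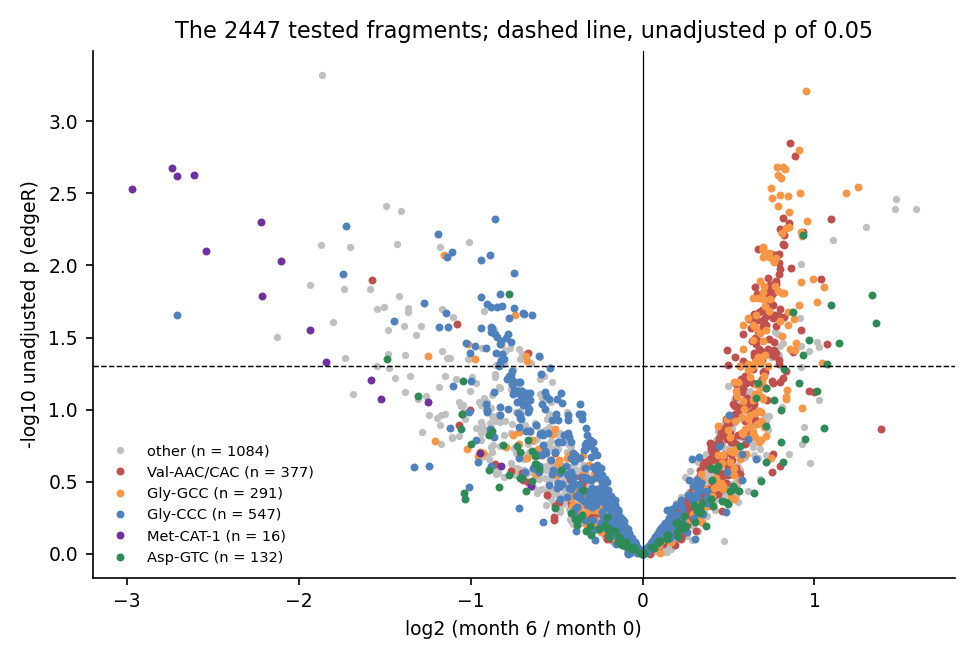
Each point is 1 of the 2447 tested fragments, with its log2 (month 6 / month 0) on the x axis and −log10 of its unadjusted edgeR p on the y axis, coloured by tRNA family, and the dashed line marks an unadjusted p of 0.05. Valine and Gly-GCC fragments fill the upper right, Gly-CCC and Met-CAT-1 fragments the upper left, and no adjusted p is below 0.304.

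One difference seen in every animal lay in fragment length, although it did not pass after adjustment. Fragments of 30 to 31 nt held between 50.7% and 61.7% of counts at month 6, with a median of 57.7%, and between 31.8% and 53.5% at month 0, with a median of 48.6%. The share was higher at month 6 in 8 of 8 animals, although the ranges overlapped. In PA8915 it was close to equal, 51.1% at month 6 and 50.7% at month 0. The means were 56.7% ± 4.36 at month 6 and 46.7% ± 6.97 at month 0 (SD, n = 8 each), and the exact sign-flip test over animals gave p = 0.0078, the smallest that 8 animals allow, and 0.172 after adjustment over 22 library measures. An unpaired permutation of the month labels gave an adjusted p of 0.041. The difference lay at 31 nt, which held 43.9% ± 5.47 of counts at month 6 and 31.9% ± 9.52 at month 0 and was higher in 7 of 8 animals. In PA8915 the 31 nt share was 37.9% at month 6 and 38.9% at month 0. Fragments of 32 nt held 17.6% ± 4.35 and 23.0% ± 9.43, lower in 6 of 8, and without PA8001 16.7% ± 3.75 at month 6 and 20.1% ± 5.13 at month 0, lower in 5 of 7. Those of 30 nt held 12.8% ± 2.07 and 14.7% ± 2.94, also lower in 6 of 8.

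**Figure D2:**
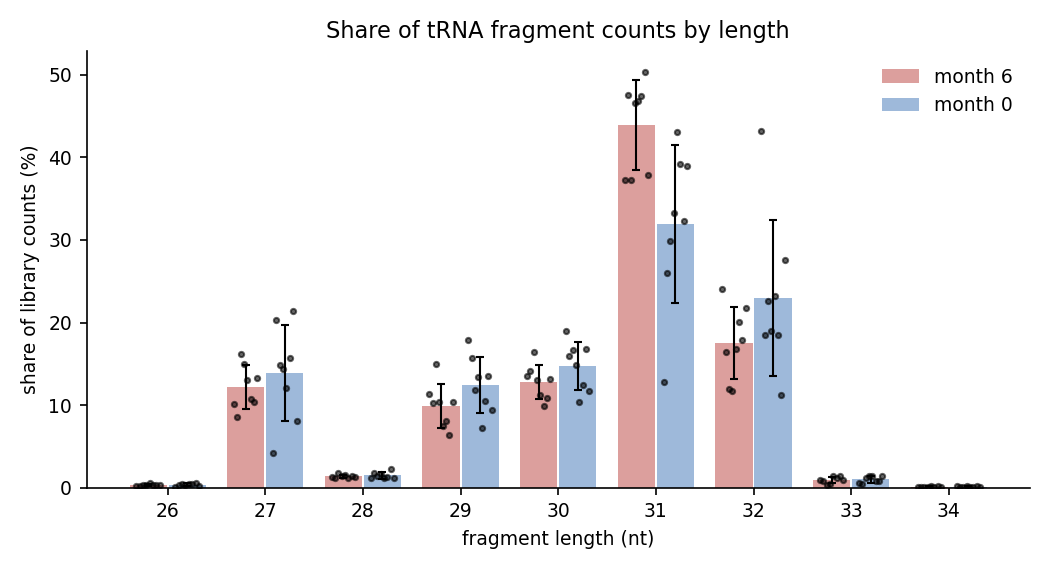
Bars give the mean share of library counts (%, y axis) held by fragments of each length (nt, x axis) at month 6 and month 0, with SD over 8 libraries as error bars and each library as a point. At 31 nt the month 6 mean is 43.9% and the month 0 mean 31.9%, and the lowest month 0 points at 27 and 31 nt and the highest at 32 nt belong to the shallow library of PA8001.

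Valine fragments had a larger mean share of serum tRNA fragments at month 6, a difference that did not pass after adjustment. The Val-AAC/CAC family, from tRNAs that carry valine to the ribosome, held 40.2% to 57.0% of counts at month 6 (median 51.7%) and 10.8% to 53.5% at month 0 (median 36.2%). Its share was higher in 6 of 8 animals and close to equal in PA8873 and PA8915, where it was 53.4% and 43.4% at month 6 and 53.5% and 44.9% at month 0. The means were 49.3% ± 6.76 at month 6 and 35.3% ± 13.0 at month 0 (SD, n = 8 each, exact sign-flip p = 0.031, adjusted 0.172). Gly-CCC, the other leading family, held 34.5% ± 8.36 and 47.7% ± 13.6, lower in 7 of 8 animals (exact p = 0.0156, adjusted 0.172). The log2 ratio of valine to Gly-CCC counts was 0.54 ± 0.55 at month 6 and −0.51 ± 1.09 at month 0, higher in 7 of 8 (exact p = 0.023, adjusted 0.172). These shares are of 1 total, so a family's share also moves with the others. Of the valine 5′ counts, 76.8% ± 3.75 at month 6 and 72.3% ± 3.84 at month 0 were of 31 nt. The valine share and the 31 nt share thus hold many of the same counts and are not separate differences.

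As a level, the valine family had 248293 to 690242 CPM at month 6 (median 493535) and 56452 to 608556 CPM at month 0 (median 352945). Its log2 of 0.55 ± 0.275 (SE) had an unadjusted p of 0.045 and an adjusted p of 0.323 over the 26 families tested in edgeR. No family passed (0.0%), with 1 of 26 higher (3.85%) and 2 lower (7.69%) at an unadjusted p under 0.05, and 9 of the 26 had a log2 above 0 (34.6%) and 17 below (65.4%). The valine log2 was 0.34 without PA8003 and 0.39 without the month 0 library of PA8001.

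**Figure D3:**
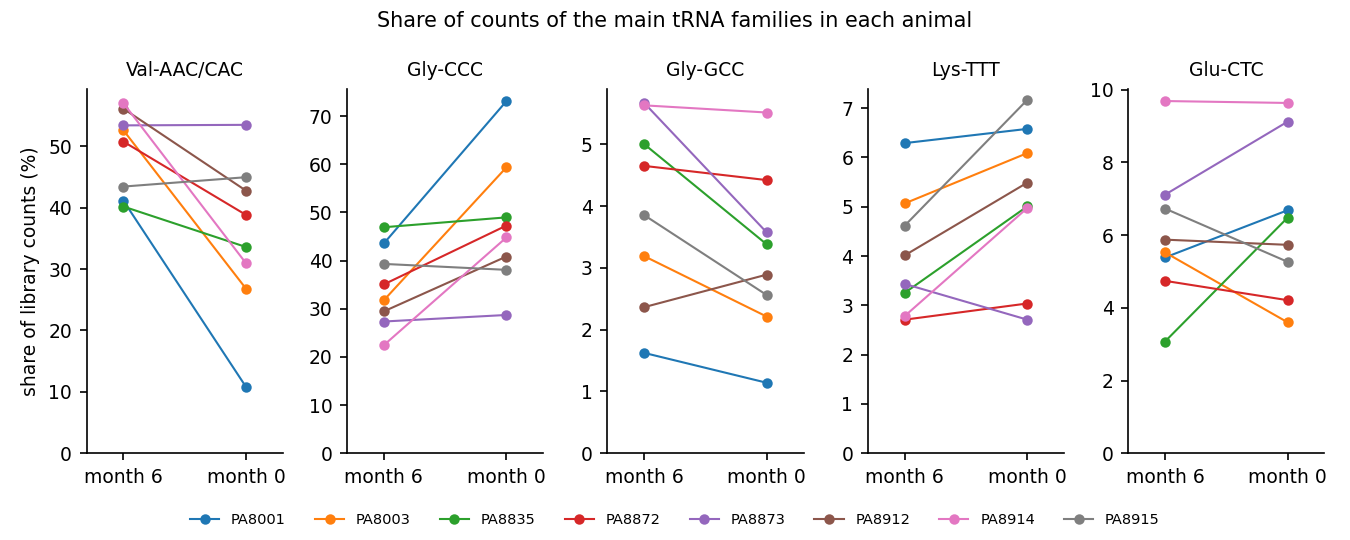
Each line joins the month 6 share of library counts (%, y axis) of 1 animal, on the left, to its month 0 share, on the right, for 5 tRNA families in panels with their own scales. Valine lines lie higher at month 6 in 6 of 8 animals and Gly-CCC lines lower in 7 of 8, and the steepest line in both panels is that of PA8001.

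Within the valine family the difference was tied to length. All 169 tested 5′ fragments of 30 to 31 nt had a log2 above 0, with a median of 0.65, and 85 had an unadjusted p under 0.05. Of all 2447 fragments, 7.93% were higher with such a p. The median was 0.21 for the 161 fragments of 32 to 36 nt and −0.35 for the 16 of 16 to 24 nt. All the 5′ valine fragments together, 371, had a median of 0.42, against 0.01 for all 2447, and of 0.26 without PA8003. These fragments come from 1 family of tRNAs and share counts with their near neighbours, so they are not independent of each other. The number with a low p was 24 of 172 without PA8003, 28 of 170 without PA8914, 51 of 176 without the month 0 library of PA8001 and 40 of 169 without the animal block, with medians of 0.49, 0.61, 0.56 and 0.57.

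The main 31 nt valine fragment, tRF-31-79MP9P9NH57SD, was the most abundant fragment in these libraries. It had 103353 to 344547 CPM at month 6 (median 243131) and 21638 to 273523 CPM at month 0 (median 165890.0), higher in 6 of 8 animals, and the 2 ranges overlapped widely. Its log2 was 0.62 ± 0.326 (SE, unadjusted p = 0.0635, adjusted 0.437 in edgeR), and 0.39 without PA8003. The A24C form, tRF-31-79MP9P9NHR7SD, had 42463 to 101284 CPM at month 6 (median 79827) and 7608 to 82054 CPM at month 0 (median 48744). It was higher in 8 of 8 animals, with a log2 of 0.76 ± 0.299 (SE, unadjusted p = 0.0155, adjusted 0.338). The T16C form, tRF-31-79MP9PMNH57SD, had a log2 of 0.49, and the 32 nt main fragment, tRF-32-79MP9P9NH57SJ, one of 0.31, neither with a low p. Without PA8003 these were 0.24 and 0.095, without the month 0 library of PA8001 0.31 and 0.15, and the 32 nt fragment had 0.53 without PA8873. The rare fragment with T16C and T20C, tRF-31-79MP9PMMH57SD, averaged 60.9 ± 20.8 CPM at month 6 and 34.0 ± 16.7 CPM at month 0, higher in 6 of 8 animals (log2 0.86, adjusted p = 0.304). Whether such variants are gene copies, modified bases read as another base, or sequencing errors was not tested.

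The shares of the common variants within the valine 5′ counts were compared with tests added after the data were seen. A24C made up 20.5% ± 2.63 at month 6 and 19.0% ± 1.78 at month 0 (SD, n = 8 each, higher in 6 of 8, exact sign-flip p = 0.117). T16C made up 7.51% ± 2.48 and 8.61% ± 2.88, lower in 7 of 8 (exact p = 0.0234, adjusted 0.123 over 9 added measures). Fragments of 30 to 31 nt were 79.1% ± 3.75 of the valine 5′ counts at month 6 and 74.6% ± 4.4 at month 0, higher in 6 of 8 (exact p = 0.0781, adjusted 0.141).

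Between 26 and 32 nt, Gly-CCC fragments, from a glycine tRNA, had lower median log2 values the longer they were. The medians ran from 0.14 at 26 nt through 0.03 at 27 nt, −0.24 at 30 nt and −0.43 at 31 nt to −0.75 at 32 nt. The 12 5′ fragments of 16 to 24 nt did not follow this order, with a median of −0.77 and 11 of them below 0. Of the 94 fragments of 32 to 36 nt, 92 had a log2 below 0, and 30 had an unadjusted p under 0.05, with a median of −0.76. Of all 2447 fragments, 4.74% were lower with such a p, and fragments of 1 family are not independent of each other. The number with a low p was 6 of 95 without the month 0 library of PA8001, 5 of 96 without PA8872, 18 of 95 without PA8915, 47 of 95 without PA8914 and 18 of 94 without the animal block. The medians of those fits lay at −0.50, −0.63, −0.73, −0.91 and −0.85. Summed, 5′ Gly-CCC fragments of this length had 31928 to 78216 CPM at month 6 (median 43142) and 43392 to 163977 CPM at month 0 (median 81034). The sum was lower in 8 of 8 animals, though the ranges overlapped, and its log2 was −0.83 ± 0.318 (SE, unadjusted p = 0.0125, adjusted 0.401 over the 160 sums by family, class and length in edgeR). Of these sums 0 passed (0.0%), 3 were higher (1.88%) and 8 lower (5.0%) at an unadjusted p under 0.05, and 2 (1.25%) were higher and 2 (1.25%) lower in 8 of 8 animals. A log2 above 0 was found for 56 sums (35.0%) and below 0 for 104 (65.0%).

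The 32 nt fragment tRF-32-Q1Q89P9L8422Q, which ends 5 bases beyond the 27 nt one, had 26322 to 70311 CPM at month 6 (median 38272) and 40698 to 124688 CPM at month 0 (median 70742). It was lower in 7 of 8 animals, with overlapping ranges and a log2 of −0.82 ± 0.334 (SE, unadjusted p = 0.0191, adjusted 0.338 in edgeR). The 27 nt fragment, tRF-27-Q1Q89P9L842, averaged 109153 ± 40295 CPM at month 6 and 133026 ± 78437 CPM at month 0, lower in 4 and higher in 4 animals, with a log2 of −0.12. The 29 nt fragment tRF-29-Q1Q89P9L84FS and the 30 nt fragment tRF-30-Q1Q89P9L8422 had log2 values of −0.21 and −0.36, each lower in 6 of 8 animals. Of the Gly-CCC 5′ counts, 14.4% ± 5.59 at month 6 and 21.2% ± 10.9 at month 0 were of 32 to 36 nt, lower in 7 of 8. The exact sign-flip p was 0.0547, and 0.123 after adjustment over the 9 measures added after the data were seen, of which this is 1.

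**Figure D4:**
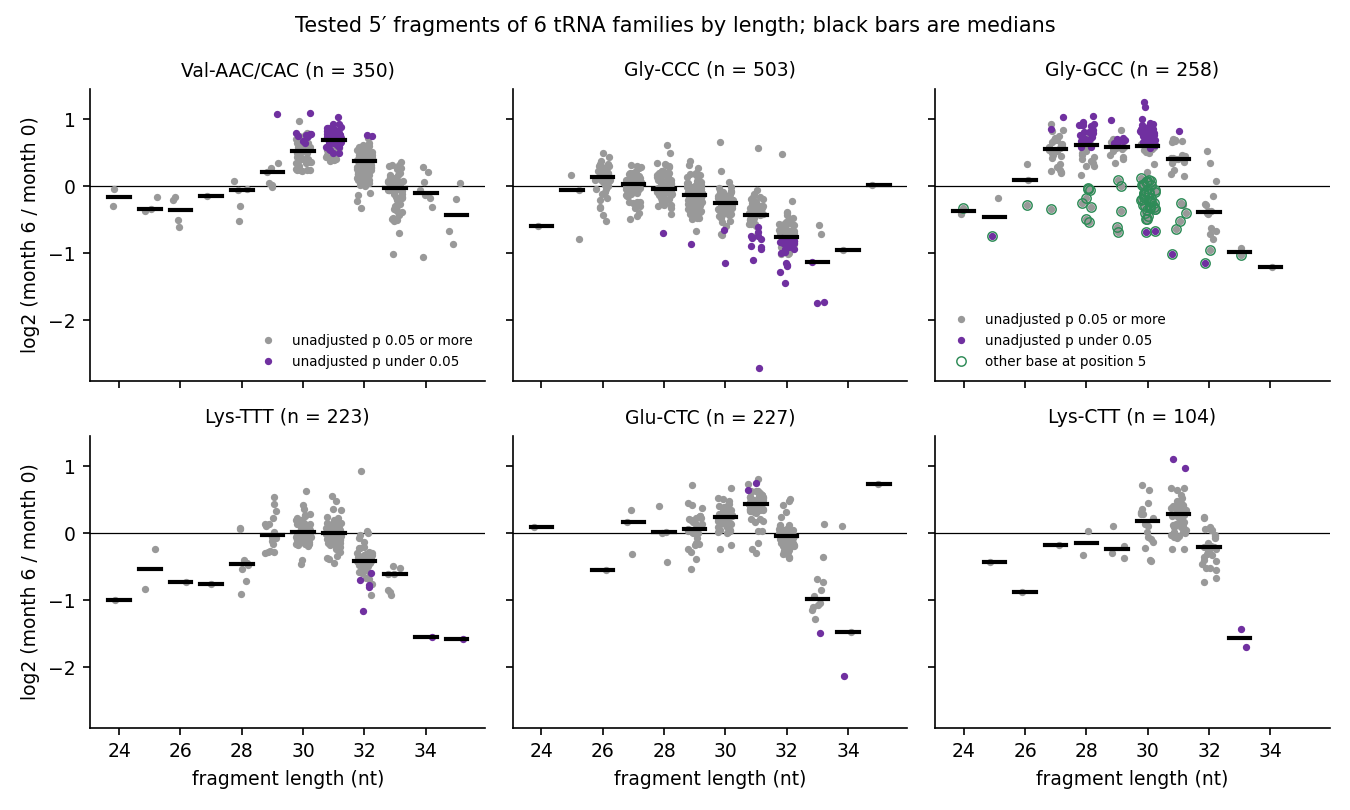
Points are tested 5′ fragments of 6 tRNA families, with length (nt) on the x axis and log2 (month 6 / month 0) on the y axis. Purple points have an unadjusted edgeR p under 0.05, black bars are medians, and open green rings mark Gly-GCC fragments with G5T. The valine median is highest at 31 nt, the Gly-CCC median goes down to −0.75 at 32 nt, and the ringed Gly-GCC fragments lie mostly below 0.

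Lysine and glutamate families also had lower medians at 32 nt than at 31 nt. The Lys-TTT fragment of 32 nt, tRF-32-PS5P4PW3FJHP1, had 4200.4 to 10209 CPM at month 6 (median 6082) and 6202 to 14223 CPM at month 0 (median 11039). It was lower in 8 of 8 animals, with a log2 of −0.60 ± 0.284 (SE, unadjusted p = 0.043, adjusted 0.383 in edgeR), and was picked for its values. The fragment 1 base shorter, tRF-31-PS5P4PW3FJHPB, averaged 19474 ± 6707 CPM at month 6 and 22106 ± 8525 CPM at month 0 with a log2 of −0.14. Of the 71 tested Lys-TTT 5′ fragments of 32 to 36 nt, 68 had a log2 below 0 (median −0.44), against a median of 0.01 for the 122 of 30 to 31 nt. Within Lys-TTT, 31 nt fragments made up 59.7% ± 4.34 of 5′ counts at month 6 and 53.9% ± 6.86 at month 0, higher in 8 of 8 animals. The family as a whole held 4.02% ± 1.24 of library counts at month 6 and 5.13% ± 1.58 at month 0, lower in 7 of 8 (exact p = 0.0391, adjusted 0.172).

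Glu-CTC fragments, among the most common 5′ pieces in mammalian serum, held 6.02% ± 1.93 of counts at month 6 and 6.34% ± 2.15 at month 0, higher in 5 animals and lower in 3 (exact p = 0.688, adjusted 0.945). Their medians were 0.44 at 31 nt, −0.04 at 32 nt and −0.99 at 33 nt. Of the Glu-CTC 5′ counts, 46.1% ± 5.77 at month 6 and 37.7% ± 8.81 at month 0 were of 31 nt, higher in 7 of 8 animals. The main 31 nt fragment, tRF-31-87R8WP9N1EWJ0, averaged 24051 ± 9561 CPM at month 6 and 22299.7 ± 14644 CPM at month 0. A 36 nt fragment that runs into the anticodon loop, tRF-36-87R8WP9N1EWJQ7D, had the largest log2 of all tested fragments, 1.59 ± 0.517 (SE, unadjusted p = 0.00406, adjusted 0.304). It had 6.23 to 160.1 CPM at month 6 (median 28.04) and 2.81 to 44.3 CPM at month 0 (median 21.7), higher in 6 of 8 animals with wide overlap. The 21 nt internal fragment tRF-21-43RX6NMHD averaged 4.06 ± 1.89 and 7.52 ± 3.89 CPM (log2 −1.01, adjusted p = 0.304).

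Across all families, 548 of 812 tested 5′ fragments of 30 to 31 nt had a log2 above 0, with a median of 0.24. Of 514 fragments of 32 to 36 nt, 341 had one below 0, with a median of −0.28, and the 132 fragments of 16 to 24 nt had a median of −0.42, 102 of them below 0. The 551 fragments of 25 to 29 nt lay at 0.02. The same lengths carried the month 0 make-up of PA8001, whose shares were 31.8% at 30 to 31 nt and 44.1% at 32 to 36 nt. Without that animal the medians were 0.15 at 30 to 31 nt and −0.27 at 32 to 36 nt. The median at 30 to 31 nt was 0.11 without PA8003, and that at 32 to 36 nt was −0.15 without PA8835, −0.15 without PA8872 and −0.41 without PA8914. At 16 to 24 nt the median was −0.58 without PA8003 and −0.31 without PA8872. It was −0.15, with 51 of 147 above 0, without the month 0 libraries of PA8835 and PA8872. Without a filter on low counts it was 0.004, with 2358 above 0 and 2079 below.

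The Gly-GCC family divided by a single base. Fragments of 26 to 31 nt without G5T had a log2 above 0 in 173 of 175 cases, with a median of 0.66. Of these 175, 78 had an unadjusted p under 0.05 and 36 were higher in 8 of 8 animals. Among all 2447 fragments, 7.93% were higher with such a p and 2.41% were higher in 8 of 8. The Gly-GCC fragments share counts with their near neighbours and are not independent of each other. Fragments with G5T had a log2 below 0 in 49 of 59 cases, with a median of −0.24, and 3 of them had a low p. The number with a low p among the fragments without G5T was 30 of 175 without PA8835, 49 of 177 without PA8003, 51 of 181 without the month 0 libraries of PA8835 and PA8872, 44 of 175 with library totals and 22 of 175 without the animal block, with medians from 0.48 to 0.63. This split was noticed in the data and the groups were drawn from it, so these counts are no test of it. Without the month 0 libraries of PA8835 and PA8872 the median of the G5T fragments was −0.02, and without PA8001 it was −0.40, with 59 of 59 below 0. The share of G5T among Gly-GCC 5′ counts ranged from 7.44% to 38.9% at month 6 (median 11.8%) and from 14.8% to 27.7% at month 0 (median 18.3%). It was lower in 6 of 8 animals, the month 6 library of PA8001 being the one at 38.9%. The means were 14.8% ± 10.3 at month 6 and 20.2% ± 5.56 at month 0 (exact sign-flip p = 0.172, adjusted 0.220). This is 1 of the 9 tests added after the data were seen, so it is no independent test of the split.

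The main Gly-GCC fragment of 30 nt, tRF-30-P4R8YP9LON4V, had 3480.3 to 37081 CPM at month 6 (median 28003) and 2647 to 36148 CPM at month 0 (median 17326). It was higher in 7 of 8 animals, with nearly the same range in both months and a log2 of 0.63 ± 0.381 (SE, unadjusted p = 0.109, adjusted 0.511 in edgeR). The G5T form, tRF-30-PNR8YP9LON4V, also picked for its values, averaged 3249.9 ± 980.2 CPM at month 6 and 4316 ± 2531 CPM at month 0, with a log2 of −0.33. That log2 was −0.16 without PA8835, −0.53 without PA8915, −0.51 without the month 0 library of PA8001 and 0.12 without the month 0 libraries of PA8835 and PA8872. The rare C13T form, tRF-30-P4R8ZP9LON4V, had the smallest p among fragments that were higher. It had 15.8 to 88.1 CPM at month 6 (median 57.5) and 10.5 to 48.0 CPM at month 0 (median 26.2), higher in 7 of 8 animals, with a log2 of 0.95 ± 0.253 (SE, unadjusted p = 0.000618, adjusted 0.304).

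Among all 59 tested Gly-GCC fragments of 30 nt that differ by 1 base from the main one, 57 had a log2 above 0 and 46 had a low p, with a median of 0.71, close to the 0.63 of the main fragment. They are all near copies of that fragment, so they are not independent of it or of each other. The number with a low p was 29 of 59 without PA8003, 23 of 58 without PA8835 and 22 of 59 without the animal block, with medians of 0.61, 0.55 and 0.69. The A3G form, tRF-30-Q4R8YP9LON4V, averaged 50.05 ± 21.9 CPM at month 6 and 28.2 ± 8.44 CPM at month 0, higher in 8 of 8 animals. The A20C form, tRF-30-P4R8YP9MON4V, averaged 30.8 ± 13.6 and 17.2 ± 8.94 CPM, also higher in 8 of 8, and both had an adjusted p of 0.304 in edgeR. The family as a whole held 3.997% ± 1.51 of counts at month 6 and 3.21% ± 1.35 at month 0, higher in 7 of 8 (exact p = 0.0469, adjusted 0.172), with a log2 of 0.44 as a level and of 0.29 without PA8003.

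The lowest log2 of all tested fragments, −2.97, belonged to a methionine family, here called Met-CAT-1, whose first 7 bases are those of the human mitochondrial methionine tRNA. All 16 of its tested 5′ fragments had a log2 below 0, with a median of −2.02. Of these, 10 had an unadjusted p under 0.05, against 4.74% of all 2447 fragments that were lower with such a p. The median was −1.26 without PA8835 and −1.05 without PA8872. Without the month 0 libraries of both, 8 fragments lay above 0 and 8 below, with a median of 0.02 and 0 low p values. In the fit to the 2 months alone only 8 fragments were tested, with a median of −1.29 and 1 low p. The family had 28.1 to 207 CPM at month 6 (median 66.6) and 28.9 to 1287 CPM at month 0 (median 141). It was lower in 4 animals and higher in 4, or lower in 6 and higher in 2 when counts were scaled by library totals alone, and the high end of month 0 came from PA8835 and PA8872, with 1022 and 1287 CPM. Those 2 libraries held 80.1% of its month 0 counts, and the other 6 month 0 libraries averaged 98.8 ± 70.4 CPM (SD), against 97.8 ± 71.6 CPM at month 6 (SD, n = 8). The log2 of −1.69 ± 0.822 (SE, unadjusted p = 0.049, adjusted 0.323 in edgeR) became 0.11 without them, a fit added after the data were seen. Leaving out PA8872 alone gave −0.74.

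The same 2 libraries had the highest month 0 values of all 4 named Met-CAT-1 fragments. tRF-42-1OR6QO004MR1J5KUF averaged 0.729 ± 0.731 CPM at month 6 and 5.403 ± 7.39 CPM at month 0, near the floor of 3 counts, and tRF-41-1OR6QO004MR1J5KUB 1.49 ± 1.38 and 10.7 ± 16.8 CPM. tRF-31-1OR6QO004MR1D averaged 3.29 ± 2.12 CPM at month 6 and 17.7 ± 23.5 CPM at month 0, and tRF-34-1OR6QO004MR11B 0.775 ± 0.649 and 8.45 ± 14.4 CPM. Each of these 4 was listed with 0 counts in at least 1 library of each month, with log2 values from −2.97 to −2.61, and from −1.17 to −0.66 without those 2 libraries. At month 15 the family averaged 469 ± 423 CPM, with 1289 CPM in PA8001 and 856 CPM in PA8003. Month 6 against month 15 had a log2 of −2.47 with an adjusted p of 0.0358 in edgeR, 1 of 3 families (11.5% of 26) that passed in that comparison. Met-CAT-2, which begins like the human initiator methionine tRNA, had a family log2 of 0.23 with 25 of 30 tested 5′ fragments above 0, and a log2 of −0.04 without PA8003 and 0.05 without the month 0 library of PA8001.

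**Figure D5:**
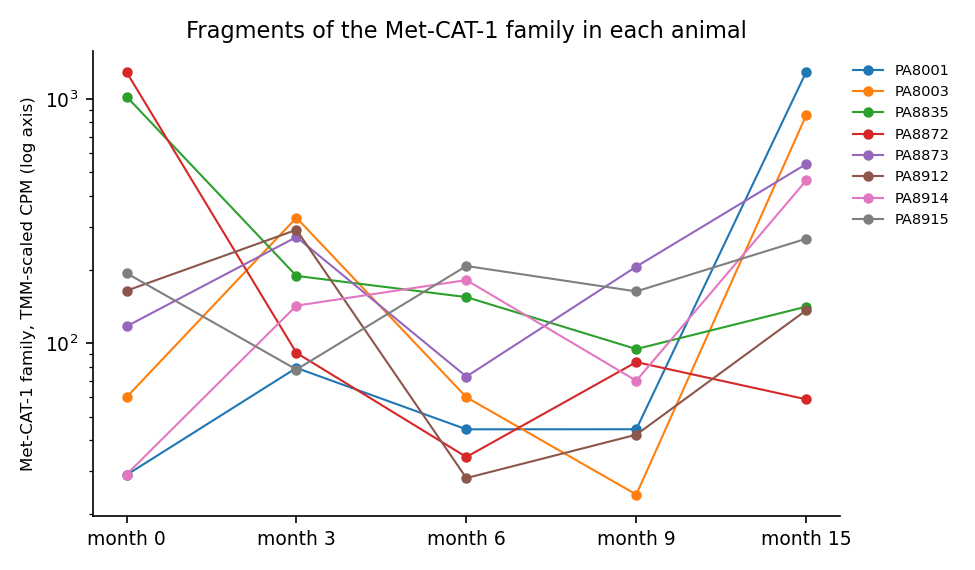
Each line follows the Met-CAT-1 family (TMM-scaled CPM, log y axis) in 1 animal through months 0, 3, 6, 9 and 15. PA8835 and PA8872 start at 1022 and 1287 CPM at month 0, the month 6 values lie between 28.1 and 207, and PA8001 and PA8003 are highest at month 15.

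Aspartate fragments had medians of unlike sign at the 3′ and the 5′ end. The 3′ fragments of Asp-GTC that end in CCA had a log2 above 0 in 26 of 28 cases, with a median of 0.41, and the 5′ fragments one below 0 in 21 of 22, with a median of −0.64. The 3′ median was 0.27 without PA8835 and 0.24 with library totals. The 5′ median was −0.35 without PA8872 and −0.27, with 7 of 22 above 0, without the month 0 libraries of PA8835 and PA8872. The 42 nt fragment tRF-42-S5QKF1R3WE8RO86J2 had 30.01 to 137 CPM at month 6 (median 75.8) and 16.6 to 102 CPM at month 0 (median 33.6), higher in 6 of 8 animals with overlapping ranges (log2 0.94, adjusted p = 0.304). The 38 nt fragment tRF-38-2VR008R959KUMK9, which lacks the last bases, averaged 7.27 ± 4.5 CPM at month 6 and 2.86 ± 2.63 CPM at month 0 and was higher in 8 of 8 (log2 1.34, adjusted p = 0.338). The 33 nt fragment tRF-33-L85DMKYUYRLHDY, the most abundant of the Asp-GTC 3′ side, averaged 317 ± 301 and 237 ± 267 CPM, higher in 7 of 8, with a log2 of 0.53 that was 0.20 without PA8872 and 0.79 without PA8912. The family as a whole had a log2 of 0.10 and lay at 0.00 when libraries were scaled by their totals alone.

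Lysine CTT fragments were mixed. The 16 nt fragment tRF-16-W3FJIKB, which lies inside the tRNA, had the smallest p of all 2447. It had 0.39 to 5.65 CPM at month 6 (median 1.71) and 3.00 to 11.5 CPM at month 0 (median 5.67), lower in 6 of 8 animals, with a log2 of −1.86 ± 0.484 (SE, unadjusted p = 0.000476, adjusted 0.304 in edgeR). In 3 month 6 libraries and 1 month 0 library these values rest on 3 counts or fewer. Of the 28 tested internal Lys-CTT fragments 23 had a log2 below 0, with a median of −0.47. The 33 nt fragments were lower too. The A29G form, tRF-33-PSQP4PW3FJIKW, had 9.41 ± 3.09 CPM at month 6 and 25.7 ± 11.2 CPM at month 0, lower in 7 of 8 animals. The form with the main sequence, tRF-33-PSQP4PW3FJI0W, had 2.04 ± 2.44 and 5.53 ± 3.64 CPM. The 16 nt fragment tRF-16-W3FJIKB also holds the g of A29G, where the main Lys-CTT sequence has an a. The 32 nt fragment tRF-32-PSQP4PW3FJI01 had a log2 of −0.42, and of −0.21 without PA8835. A long fragment of 56 nt that carries the anticodon, tRF-56-PSQP4PW3FJI0E7UM8KSWRND, averaged 6.48 ± 6.56 and 2.48 ± 2.82 CPM, higher in 7 of 8 (log2 1.47, adjusted p = 0.304).

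The remaining named fragments were rare or had no family. Higher, and not passing, were the 43 nt CCA fragment tRF-43-96L85DMKYOYRLHR0D2 with 1.82 ± 1.27 CPM at month 6 and 0.700 ± 0.831 CPM at month 0, and the 34 nt internal fragment tRF-34-LSD3387SFRJ4HR with 3.70 ± 1.14 and 2.02 ± 0.684 CPM. The 43 nt fragment has the sequence of the Asp-GTC fragment tRF-42-S5QKF1R3WE8RO86J2 with a further base at its start and an a in place of a g. Lower, and not passing, were tRF-21-WB08Q2B5D with 1.90 ± 1.51 and 5.90 ± 5.20 CPM, tRF-16-OUR830E with 9.81 ± 7.60 and 22.7 ± 17.2 CPM, the Gly-CCC G25C fragment tRF-29-Q1Q89P9L8MFS with 3.49 ± 1.61 and 6.99 ± 4.86 CPM, and tRF-21-RPM830MME with 1.66 ± 1.45 and 4.61 ± 4.28 CPM. The last belongs to a family with no anticodon read that begins GGTAGCG, whose level was 261 ± 145 CPM at month 6 and 459.98 ± 299 CPM at month 0 (log2 −0.90, unadjusted p = 0.0404, adjusted 0.323). Its log2 was −0.52 without PA8835 and −0.31 without the month 0 libraries of PA8835 and PA8872. The 10 tested 5′ fragments of that family were all below 0.

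Lists of fragments described in earlier work on serum, hormones or RNA-binding proteins were counted beside all 2447, whose median was 0.01. The 1746 fragments from the 5′ ends of tRNAs abundant in serum had 932 log2 values above 0 and a median of 0.03. The 134 fragments from tRNAs whose pieces are described as dependent on sex hormones had 67 above and 67 below 0, and their most abundant tested member was tRF-32-PSQP4PW3FJI01. The 42 fragments with a run of guanines had a median of −0.23, the 1350 from tRNAs described to bind the RNA-binding protein YBX1 one of −0.04, and the 843 from glycine tRNAs one of −0.09. The 430 from valine tRNAs had a median of 0.41, the 52 ending in CCA 0.31 (0.11 to 0.15 without PA8835, PA8873 or PA8914) and the 110 of the Asp-GTC 3′ side 0.21. The most abundant guanine-run fragment, tRF-30-RK9P4P9L5HMV, averaged 657 ± 466 CPM at month 6 and 742 ± 666 CPM at month 0. It was placed in Ala-TGC but departs by A5G and A27G from the sequence by which that family was read. The form with that sequence, tRF-30-R29P4P9L5HJV, was far rarer, with 7.54 ± 4.61 and 7.90 ± 5.65 CPM. The Ala-TGC name rests on 4 anticodon reads. The main fragment tRF-19-OUR830JZ, of a family with no anticodon read, averaged 610.3 ± 241 and 566 ± 316 CPM, and the 52 nt Gly-CCC fragment tRF-52-Q1Q89P9L8422YRI7XUK8N 47.2 ± 26.5 and 76.5 ± 98.95 CPM.

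Other months are set beside month 6 only as values, since each of those comparisons shares the month 0 libraries. For valine fragments of 30 to 31 nt the median log2 against month 0 was 0.44 at month 3, 0.65 at month 6, 0.57 at month 9 and −0.39 at month 15. For Gly-CCC fragments of 32 to 36 nt it was −0.50 at month 3, −0.76 at month 6, −0.50 at month 9 and 0.85 at month 15. Tested directly, month 6 differed from months 3 and 9 in 0 of 2447 fragments (0.0%) and from month 15 in 654 (26.7%), 237 higher and 417 lower at month 6. Of the 169 valine fragments of 30 to 31 nt, 124 were higher at month 6 than at month 15 and 0 lower, and of the 94 Gly-CCC fragments of 32 to 36 nt 77 were lower and 0 higher. Of the 160 sums by family, class and length, 62 (38.8%) passed against month 15 and 0 against months 3 and 9. The month 15 libraries were uneven: the Gly-CCC family averaged 537268 ± 476880 CPM there (SD), with a median of 390174. How far the counts against month 15 rest on single libraries was not tested.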

How the data were processed

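Small RNA of 40 serum libraries from 8 baboons was counted by fragment. The authors deposited whole-number counts per fragment sequence and library with no scaling, and a second deposited table gives the sequences. Per the labels, molecular identifiers were assigned at cDNA synthesis. Whether counts were collapsed by them is not given, nor are aligner and tRNA reference, in the sources used here, so the floor of 3 counts covers counting error only. R 4.5.0, edgeR and limma are named in the submitters' processing notes. Of 60201 lines, 1614 had no ID and held an unread base (0.0805% of counts). They were left out.

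Families were read from the sequences: 5′ fragments within 2 mismatches of the first 31 bases behind an anticodon read took its family. Other fragments took the family of a longer 5′ fragment that holds their exact sequence. A further 1777 fragments (170017 counts) were placed because their end pairs with the first bases of 1 family. The rest stayed without a family. The valine anticodons AAC and CAC could not be separated, and 5 families had no anticodon read. For the fragments, edgeR 4.0.16 was run in R 4.3.3 with filterByExpr at a minimum count of 10, TMM scaling, and a quasi-likelihood model (robust) of animal and month over all 40 libraries, with Benjamini-Hochberg adjustment and an adjusted p under 0.05 as passing. Sums per family, and per family, class and length, used the same fit and the library sizes of the fragments. Library measures were tested by flipping the signs of the 8 animals' differences (exact, two-sided), with adjustment over 22 measures, and 9 more were added after the data were seen. DESeq2 1.42.0, limma-voom (limma 3.58.1), other scalings and filters, no block, the 2 months alone and fits without single libraries or animals were the alternatives.

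The block rests on the animal number in the labels. In deviations from month means the month 6 and month 0 libraries of an animal correlated at a mean of 0.240, and 5 of 8 pairs were above 0.1. The block brought edgeR's biological coefficient of variation to 0.5003, against 0.587 for month alone. Each edgeR p rests on the spread left within animals once animal and month are fitted, over all 40 libraries. Each sign-flip p rests on the 8 paired differences, with 1 draw per animal and month. The fit was tested on simulated counts drawn without any animal effect. It called 31% of 100 fragments changed 2-fold and 88% of 100 changed 4-fold, and 0.089% of 2247 unchanged ones. Many 2-fold changes would thus be missed.

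Named fragments were, as none passed, the 8 higher and 8 lower with the smallest p, 1 per family and class, and then the 10 most abundant, up to 5 with the smallest p among those called by DESeq2 and up to 5 among those called without a filter, the most abundant of each list, and main sequences of named variants. The 5 most abundant families and those with an unadjusted p under 0.05 were named too. Another 2 fragments, a Lys-TTT fragment of 32 nt and a Gly-GCC fragment with G5T, were chosen after their values were seen. The members, lists and alternatives were chosen with earlier results of these data known. The labels give no batch or preparation date.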

Additional observations from a re-analysis of the deposited data

Results flagged for a closer look

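Among 164 sets of 8 libraries of 1 month, 19 held a library whose gap to its nearest neighbour was large against the whole range (above Dixon's 95% critical value), and chance gives about 1 in 20 such sets. Many of the sets share libraries and fragments, so they are not independent.

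The shallow month 0 library of PA8001 gave 11 of them. On the scale of log2(CPM + 1), it had 15.8 for the Val-AAC/CAC family, against a month 0 median of 18.4, and 7.98 for Met-CAT-2 against 10.2. The valine fragments tRF-31-79MP9P9NH57SD, tRF-31-79MP9P9NHR7SD, tRF-32-79MP9P9NH57SJ and tRF-31-79MP9PMNH57SD stood there at 14.4, 12.9, 12.9 and 11.8, against month 0 medians of 17.3, 15.6, 15.4 and 14.2. The fragment tRF-19-OUR830JZ stood at 5.43 against 9.21, and tRF-29-Q1Q89P9L8MFS at 4.28 against 2.77. The fragments tRF-21-43RX6NMHD and tRF-30-P4R8YP9MON4V had 0 counts there, a log2(CPM + 1) of 0.0, against medians of 3.19 and 4.25, where 3 counts equal 7.88 CPM. In the same library 54.1% of Lys-TTT 5′ counts were of 32 to 36 nt, against a median of 26.1%.

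The month 6 library of PA8001 had 38.9% G5T among Gly-GCC 5′ counts against a median of 11.8%, 44.1% of valine 5′ counts off the main sequence against 36.4%, and 30.9% of Lys-TTT 5′ counts of 32 to 36 nt against 20.8%. The month 6 library of PA8873 had 98.9% of counts in 5′ fragments against a median of 99.3%, and 1.04% in internal ones against 0.668%. The month 0 library of PA8872, 1 of the 2 with high Met-CAT-1 counts, had 0.264% of counts at 37 nt or more against 0.0948%. At month 6, tRF-34-LSD3387SFRJ4HR stood at 1.12 in PA8912 against a median of 2.26, and tRF-30-R29P4P9L5HJV at 4.29 in PA8835 against 2.798. Causes were not tested.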

How the results depend on the processing

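At an adjusted p under 0.05, 0 fragments, 0 families and 0 sums passed in all 8 fits that leave out an animal and in each other alternative, except that DESeq2 called 17 fragments and 2 sums and edgeR without a filter 8 fragments and 3 sums. Without the replicate block 0 fragments passed and 152 had an unadjusted p under 0.05, against 310 with it. That number was 1071 without a filter, 193 with a minimum count of 50, 145 without the month 0 libraries of PA8835 and PA8872, and 185 to 344 with an animal left out. For families it was 3, and 5 with library totals alone or without 2 month 15 libraries (PA8001 and PA8003), 1 with limma-voom (weighted or not), without a filter, without the block, with the 2 months alone or with TMM scaling of the sums themselves, 0 without the month 0 libraries of PA8835 and PA8872, and 0 to 4 with an animal left out. For sums it was 11, 7 with limma-voom, 5 with the 2 months alone, 0 without those 2 libraries and 4 to 16 with an animal left out. The unpaired permutation (no replicate block) gave the same 10.0 points more in the 30 to 31 nt share, with an adjusted p of 0.041. The block changed no other call. Leaving out those 2 month 0 libraries, scaling the sums by their own TMM factors, and the shares of 30, 31 and 32 nt without single animals were chosen after seeing the data. The median of Gly-GCC 5′ fragments was 0.021 without a filter, which adds fragments of very low counts.

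The values below have another sign than with all libraries and the settings of the report, and the cause was not tested. Without the month 0 libraries of PA8835 and PA8872, log2 was 0.21 for tRF-30-RK9P4P9L5HMV, 0.44 for tRF-52-Q1Q89P9L8422YRI7XUK8N (0.24 with library weights), 0.12 for tRF-30-PNR8YP9LON4V and 0.11 for Met-CAT-1. Glu-CTC was at 0.0045 with TMM scaling of the sums and Asp-GTC at −0.000971 with library totals. With an animal left out, log2 ran from −0.32 to 0.015 for tRF-27-Q1Q89P9L842, −0.07 to 0.36 for tRF-31-87R8WP9N1EWJ0, −0.26 to 0.0103 for tRF-31-PS5P4PW3FJHPB, −0.27 to 0.0935 for tRF-30-RK9P4P9L5HMV, −0.81 to 0.39 for tRF-52-Q1Q89P9L8422YRI7XUK8N, −0.23 to 0.0263 for tRF-30-R29P4P9L5HJV, −0.27 to 0.0917 for Glu-CTC and −0.0401 to 0.37 for Met-CAT-2. The difference ran from −390975 to 325893 in total count, −0.00294 to 0.0815 points in the 5′ share, −0.0107 to 0.0057 in the 3′ CCA share, −0.0708 to 0.00775 in the internal share, −0.0233 to 0.0106 in the share of 37 nt or more and −0.646 to 0.115 in the Glu-CTC share. For shares off the main sequence it ran from −0.204 to 1.31 in valine, −0.928 to 1.40 in Gly-CCC and −0.308 to 2.40 in Glu-CTC, and for distinct fragments from −90.8 to 119.8. As log2 ratios, total count was at 0.32, the 3′ CCA share at 0.22 and the share of 37 nt or more at 0.11.

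Depth limits the rare fragments most: in the month 0 library of PA8001, 3 counts equal 7.88 CPM. Fragments near 3 counts in some libraries, such as those of Met-CAT-1, are the least precise.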

Other observations

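Long fragments of the remaining families were rare, and none of their sums passed in edgeR with Benjamini-Hochberg adjustment over the 160 sums. The 5′ Lys-CTT fragments of 37 nt or more, which reach past the anticodon of a lysine tRNA, averaged 42.4 ± 26.01 CPM at month 6 and 21.5 ± 13.5 CPM at month 0 (SD, n = 8 each), higher in 6 of 8 animals, with a log2 of 0.94 and an adjusted p of 0.551. Internal fragments of 37 nt or more from a family with no anticodon read that begins GGCTCGT averaged 8.70 ± 2.93 CPM at month 6 and 4.31 ± 3.24 CPM at month 0, higher in 8 of 8 animals, with a log2 of 0.97 and an adjusted p of 0.612.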
